A study of Mus musculus with 10 samples.

Results

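The mitochondrial ribosome was described in Dp1Yey hippocampi through the genes that encode its proteins. Members were taken by symbol: every measured gene named Mrpl (large subunit) or Mrps (small subunit) followed by a number, on a probe set annotated to that symbol alone, which gave 77 genes of the 19938 measured. Counted by symbol alone, 48 were of the large and 29 of the small subunit, with Mrps18a, Mrps30 and Mrps36 in the latter. RefSeq holds 78 coding genes of such names, and the remaining one, Mrpl53, was carried only by a probe set with several symbols and has no value here. In Dp1Yey mice 2 of the members, Mrpl39 and Mrps6, lie in the duplicated interval of mouse chromosome 16 (Mmu16) and are present in 3 copies, and the other 75 are present in 2 copies in both groups.

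The study compared Down syndrome mouse models with control littermates, and the samples used here are 5 Dp1Yey mice and 5 controls, all male and 16 weeks old, with both whole hippocampi of a mouse pooled on 1 Affymetrix Mouse Gene 1.0 ST array. Dp1Yey is an engineered segmental duplication from Lipi to Zbtb21 (Mmu16, 75540514 to 97962627, GRCm38), and the controls carry no duplication. The labels give a C57BL/6N background and the text of the study another C57BL/6 substrain, which was not settled here. The values are log2 expression levels, so that a difference of 1 is a doubling, and 1.5-fold, the ratio of 3 copies to 2, is 0.58. Of 41 markers of hippocampal and neighbouring cell types, 38 were measured and all lay above background. Of these, 0 were called higher or lower, where 0.687% of all genes were called higher and 0.11% lower. The median difference between Dp1Yey and control was -0.60 for choroid plexus markers and 0.56 for blood, of which 1 of 3 markers was measured. In the other lists it lay between 0.0017 and 0.086. In bulk tissue, fewer cells of a type and less RNA per cell cannot be told apart.

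Mitochondria have their own ribosome, which translates the few messages of the mitochondrial genome, all for subunits of the respiratory chain and ATP synthase. Its RNAs come from mitochondrial DNA, whereas all its proteins are encoded in the nucleus and imported. The large subunit forms peptide bonds and the small subunit decodes the message, and many of their proteins have bacterial counterparts while others were added in the mitochondrial lineage. Mrpl39 encodes mL39, one of the added proteins, with a fold related to threonyl-tRNA synthetase. Mrps6 encodes the counterpart of bacterial ribosomal protein S6, which binds next to S18. Transcription of such nuclear genes in mammals is known to use the factors NRF1, GABPA (a subunit of NRF-2) and YY1.

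The windows around the start sites of both triplicated members are shown first, because the Mrps6 start lies beside that of another triplicated gene and Gabpa itself is triplicated, followed by the window of a 2-copy member with a GABPA-type motif. This member was picked from the 2-copy genes of smallest p between the groups, so it does not stand for all members with the motif. Each runs from 250 bases before to 50 bases after the RefSeq start (GRCm38.p6), 5′ to 3′ in the direction of the gene. For Mrpl39 (chr16:84735195-84735494, minus strand), capitals mark an NRF1-type motif, GCGCATGC, which was matched on both strands in overlap from 125 bases before the start, and a CCAAT box 223 bases before it. For Mrps6 (chr16:92058086-92058385, plus strand), capitals mark the 14 bases between the start of Slc5a3 and that of Mrps6. For Mrps22 (chr9:98601630-98601929, minus strand), capitals mark the GABPA-type motif CCGGAAG, 11 bases before the start.
Mrpl39: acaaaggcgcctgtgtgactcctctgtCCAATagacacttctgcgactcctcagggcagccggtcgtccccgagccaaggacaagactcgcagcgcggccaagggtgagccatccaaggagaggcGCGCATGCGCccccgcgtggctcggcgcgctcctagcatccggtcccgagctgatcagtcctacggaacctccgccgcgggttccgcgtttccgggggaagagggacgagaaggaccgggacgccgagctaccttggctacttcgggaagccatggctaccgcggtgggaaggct
Mrps6: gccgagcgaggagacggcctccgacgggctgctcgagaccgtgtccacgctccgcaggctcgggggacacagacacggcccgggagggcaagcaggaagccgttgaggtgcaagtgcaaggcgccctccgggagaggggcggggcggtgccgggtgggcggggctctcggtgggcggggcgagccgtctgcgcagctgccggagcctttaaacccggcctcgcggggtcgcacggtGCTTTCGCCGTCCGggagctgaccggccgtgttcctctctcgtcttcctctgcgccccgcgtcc
Mrps22: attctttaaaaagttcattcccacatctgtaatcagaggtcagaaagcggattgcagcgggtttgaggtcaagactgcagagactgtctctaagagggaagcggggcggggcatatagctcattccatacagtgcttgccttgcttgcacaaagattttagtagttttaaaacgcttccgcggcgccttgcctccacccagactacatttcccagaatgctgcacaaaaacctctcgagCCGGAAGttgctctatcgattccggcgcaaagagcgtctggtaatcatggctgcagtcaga

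A RefSeq window was found for 68 of the 77 members. Searched on both strands, CCGGAAG (GABPA type) was present in 25 of the 68 windows, or 36.8%, against 9.93% of the 27025 genes with a window. GCGCATGC (NRF1 type) was present in 8 members (11.8%, against 3.05%) and AAGATGGCG (YY1 type) in 8 (11.8%, against 1.64%). The CCAAT box was present in 26 (38.2%, against 41.1%). At least 1 of the first 3 motifs was found in 35 members, or 51.5%, against 13.6% of all genes. The 27025 genes were not limited to those measured or above background, whereas the members all lay above it, and no matched share was computed. CCGGAAG was in 14 of 42 large and 11 of 26 small subunit windows, and GCGCATGC in 7 and 1. None of the 4 motifs was in the Mrps6 window. These matches describe the letters only, and binding was not measured.

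Both triplicated members rose in Dp1Yey hippocampi. Mrpl39 (Entrez 27393, Mmu16, 84718281 to 84735244) was 10.20, 10.08, 10.12, 10.15 and 10.01 in Dp1Yey replicates 1 to 5 and 9.65, 9.59, 9.65, 9.53 and 9.60 in control replicates 1 to 5. Every Dp1Yey mouse lay above every control, and the gap between the groups was wider than the range within either. The rise was 0.50 on the log2 scale (SE 0.041, 1.42-fold, 95% CI 1.33 to 1.51, limma adjusted p = 9.93e-05, exact permutation p = 0.00794, the smallest that 5 mice against 5 allow). Mrps6 (Entrez 121022, Mmu16, 92058336 to 92112227) was 9.78, 9.56, 9.63, 9.86 and 9.38 in Dp1Yey and 9.16, 8.83, 9.22, 9.22 and 9.23 in control mice. The groups did not overlap here either, but Dp1Yey mice were spread more widely and control replicate 2 lay below the other controls. The rise was 0.51 (SE 0.096, 1.43-fold, 95% CI 1.23 to 1.65, limma adjusted p = 0.0324, exact permutation p = 0.00794). By limma at an adjusted p under 0.05, 137 of the 19938 genes were higher in Dp1Yey, or 0.687%, and 22 were lower, or 0.11%.

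**Figure D1:**
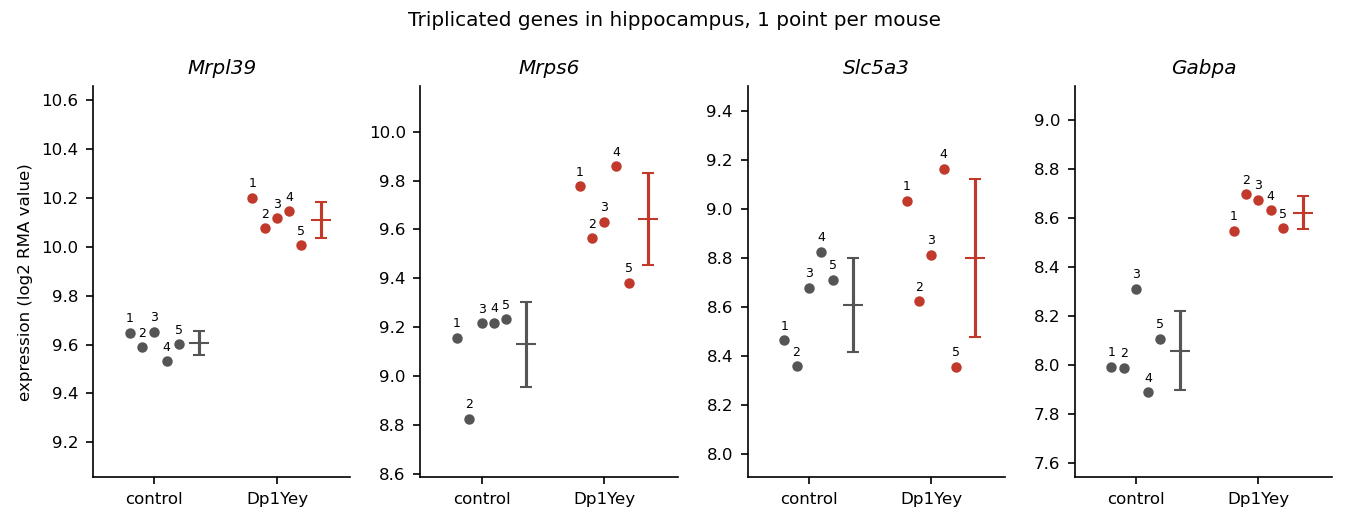
Log2 expression (vertical axes, each 1.6 log2 units long) of Mrpl39, Mrps6, Slc5a3 and Gabpa in 5 control and 5 Dp1Yey mice; points are mice with their replicate number, and bars are the mean ± SD. Mrpl39, Mrps6 and Gabpa show no overlap between groups, while Slc5a3 overlaps.

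Neither gene was shown to depart from the dose of its copies. Against 1.5-fold, adjusted over the 96 interval genes above background, the limma adjusted p was 0.0993 for Mrpl39 and 0.521 for Mrps6. The Mrpl39 value is close to the threshold, and with a new quantile normalisation it passed (adjusted p = 0.0171, rise of 0.48). Within each mouse, Mrpl39 minus Mrps6 was 0.47 ± 0.12 in Dp1Yey and 0.47 ± 0.18 in controls (SD, n = 5 each, exact permutation p = 0.905, also 0.905 after adjustment over 2 comparisons), a difference of -0.0081. By size of difference Mrps6 had rank 19 and Mrpl39 rank 22 of the 96.

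The call of Mrps6 was less firm than that of Mrpl39. Mrpl39 stayed under the threshold without any single array (adjusted p from 0.000171 to 0.000755) and rose by 0.48 to 0.53. The Mrps6 call was lost without Dp1Yey replicate 1 (adjusted p = 0.0923), 2 (0.0647), 3 (0.088) or 4 (0.0652) and without control replicate 1 (0.053) or 4 (0.0677), with rises of 0.44 to 0.58 over all 10 arrays left out in turn. The arrays differed in the interquartile range of their log2 values, which was 3.53, 3.53, 3.52, 3.53 and 3.47 in Dp1Yey and 3.44, 3.40, 3.49, 3.46 and 3.51 in control mice. With that range added to the fit, Mrpl39 still rose by 0.46 (adjusted p = 0.00252), whereas Mrps6 was higher by 0.29 and did not pass (adjusted p = 0.322). In that fit both lay under 1.5-fold (adjusted p = 0.0355 and 0.00569). Without control replicates 1 and 2, Mrpl39 rose by 0.51 (adjusted p = 0.000653) and Mrps6 was higher by 0.42 (adjusted p = 0.073). Genotype and array spread partly coincide in these mice, and their parts in the Mrps6 difference cannot be told apart.

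Most genes around Mrpl39 rose with it. All 6 measured genes of a chosen list passed the test, where 59 of the 96 interval genes above background did. On the list were Ncam2, a neural cell adhesion molecule (0.50), Jam2, a junctional adhesion molecule (0.62), and Atp5j, coupling factor 6 of ATP synthase (0.34). Gabpa (0.56), D16Ertd472e (0.51) and App, the amyloid precursor protein (0.24), completed it. D16Ertd472e starts at 78540336 and Ncam2 at 81200697, and nearer genes were left out of the list. Among these, Gm10791 (84972211 to 84979451) did not rise (-0.0022, limma adjusted p = 0.981). Cyyr1 (85452858 to 85550905) did (0.38, limma adjusted p = 0.0475). Adamts1 (85793827 to 85803113) was higher by 0.45 but did not pass (limma adjusted p = 0.124). Atp5j and App lay under 1.5-fold (limma adjusted p = 5.37e-05 and 6.81e-07), as did the median of the 96 interval genes above background (0.32). Gabpa (Mmu16, 84834891 to 84863783) was 8.55, 8.70, 8.68, 8.63 and 8.56 in Dp1Yey and 7.99, 7.99, 8.31, 7.89 and 8.11 in control mice, with no overlap (limma adjusted p = 0.00151).

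Around Mrps6, 4 of 7 listed neighbours rose, where 59 of the 96 interval genes above background did: Cryzl1 (0.55), Itsn1, an endocytic scaffold (0.37), Rcan1, a calcineurin regulator (0.49) and Atp5o, a peripheral stalk subunit of ATP synthase (0.52). Slc5a3, the sodium and myo-inositol cotransporter, did not pass although its start is 14 bases from that of Mrps6 on the same strand and the windows share 286 of 300 bases. It was 9.04, 8.62, 8.81, 9.17 and 8.36 in Dp1Yey and 8.47, 8.36, 8.68, 8.83 and 8.71 in control mice, so the groups overlapped (difference 0.19, SE 0.14, limma adjusted p = 0.444). Against 1.5-fold it was lower (adjusted p = 0.0218). Kcne2, a potassium channel subunit (-0.50, adjusted p = 0.0958), and Clic6 (-0.46, 0.434) did not pass against no change either. Smim11 and Kcne1, which lie nearer to Mrps6 than Rcan1 does, were left out of the list. Smim11 rose (0.30, limma adjusted p = 0.0322) and Kcne1 did not (-0.0064, limma adjusted p = 0.93).

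Mrps6 and Slc5a3 varied together from mouse to mouse. Over the 10 arrays, after the group means were removed, Pearson's r was 0.913 (exact permutation within groups, p = 0.000208) and Spearman's rho 0.964 (p = 0.000278). No other relation of this kind was tested, and correlations between members are only described further below. Without the mice farthest from the median of Slc5a3, Dp1Yey replicates 5 and 4, r was 0.839. It was 0.997 within Dp1Yey and 0.820 within controls. Mrps6 also varied with members on other chromosomes, most with Mrpl45 (r = 0.902), and its median r over the other 76 members was 0.529. The r with Slc5a3 is therefore not particular to this pair. The level of Mrps6 above Slc5a3 nevertheless differed between groups: it was 0.74, 0.94, 0.82, 0.69 and 1.02 in Dp1Yey and 0.69, 0.47, 0.54, 0.39 and 0.52 in control mice. All Dp1Yey mice exceeded all controls, by a narrow margin between Dp1Yey replicate 4 and control replicate 1, and the means differed by 0.32 (exact permutation p = 0.00794, adjusted p = 0.0159 over 2 comparisons). Slc5a3 (92058322 to 92087473) lies almost wholly within Mrps6, and which bases each probe set reads was not examined, so whether the probe sets share sequence was not tested. The test compares a change and not the levels of the genes, since different probe sets have no common scale.

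**Figure D2:**
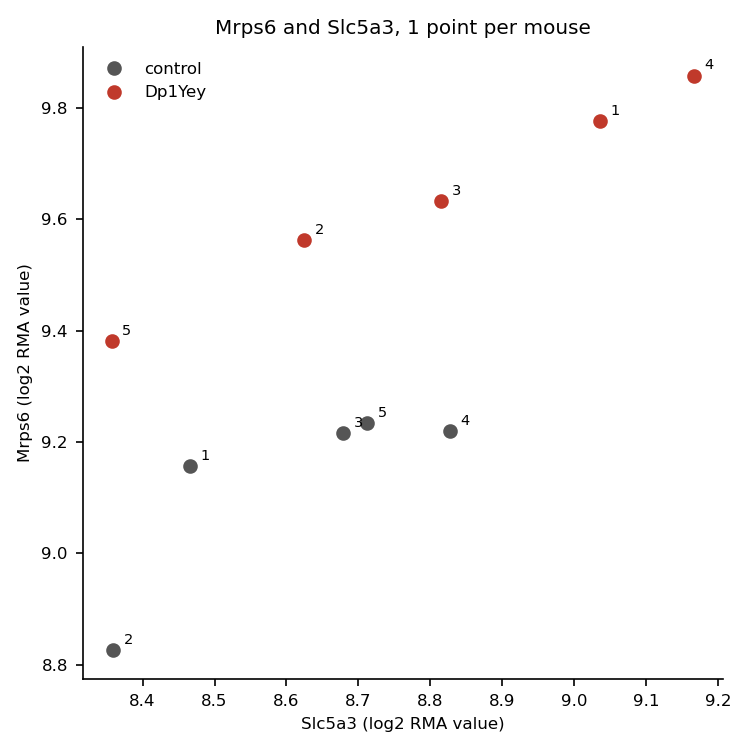
Log2 expression of Mrps6 (vertical axis) against Slc5a3 (horizontal axis) in 5 control (grey) and 5 Dp1Yey (red) mice, numbered by replicate. In each group Mrps6 is higher where Slc5a3 is higher, and the Dp1Yey points lie above the control points at a like level of Slc5a3.

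Slc5a3, Kcne2 and Clic6 are known for high expression in the choroid plexus, which borders the hippocampus. The mean of the 4 choroid plexus markers (Ttr, Kl, Folr1 and Slc4a5) ranged from 7.52 to 8.41 in Dp1Yey and from 7.87 to 9.46 in control mice. All 4 were lower in Dp1Yey, with a median difference of -0.60, and 0 were called. In control replicates 1 to 5 the marker mean was 9.46, 8.08, 7.87, 9.19 and 9.22, and Mrps6 9.16, 8.83, 9.22, 9.22 and 9.23. In Dp1Yey replicates 1 to 5 the marker mean was 7.90, 7.69, 7.52, 8.41 and 8.21, and Mrps6 9.78, 9.56, 9.63, 9.86 and 9.38. The part of choroid plexus tissue in the Mrps6 and Slc5a3 values was not tested.

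The 2-copy members did not pass the test in either direction. Of the 75, 0 were higher, against 0.687% of all genes, and 0 were lower, against 0.11%, at a limma adjusted p under 0.05. With shares this low, a count of 0 does not set the members apart from other genes. At an unadjusted p under 0.05, 15 were higher (8 large, 7 small subunit), against 8.75% of all genes, and 0 were lower, against 10.8%. A rank statistic of the kind the study used called 3 higher (Mrpl41, Mrpl47 and Mrps17) and 0 lower, where it called 2.46% of all genes higher and 0.993% lower. The groups did not overlap in 2 members, Mrpl47 and Mrpl15, both higher in Dp1Yey, against 2.4% of all genes.

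Most 2-copy members nevertheless had a small difference above 0. The difference was positive in 66 of 75, in 45 of 47 large and 21 of 28 small subunit genes. It was positive in 42.1% of all genes and 46.3% of genes above background. The median difference was 0.076 for the large and 0.082 for the small subunit, against -0.015 over all genes and -0.0082 over genes above background. The differences ranged from -0.0045 to 0.28 in the large and from -0.061 to 0.30 in the small subunit, all below those of Mrpl39 and Mrps6. Other complexes lay on the same side, also with 0 called. The median was 0.045 over 53 cytosolic ribosomal proteins, of which 40 were above 0. Over 34 subunits of respiratory complex I it was 0.068, with 32 above 0.

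**Figure D3:**
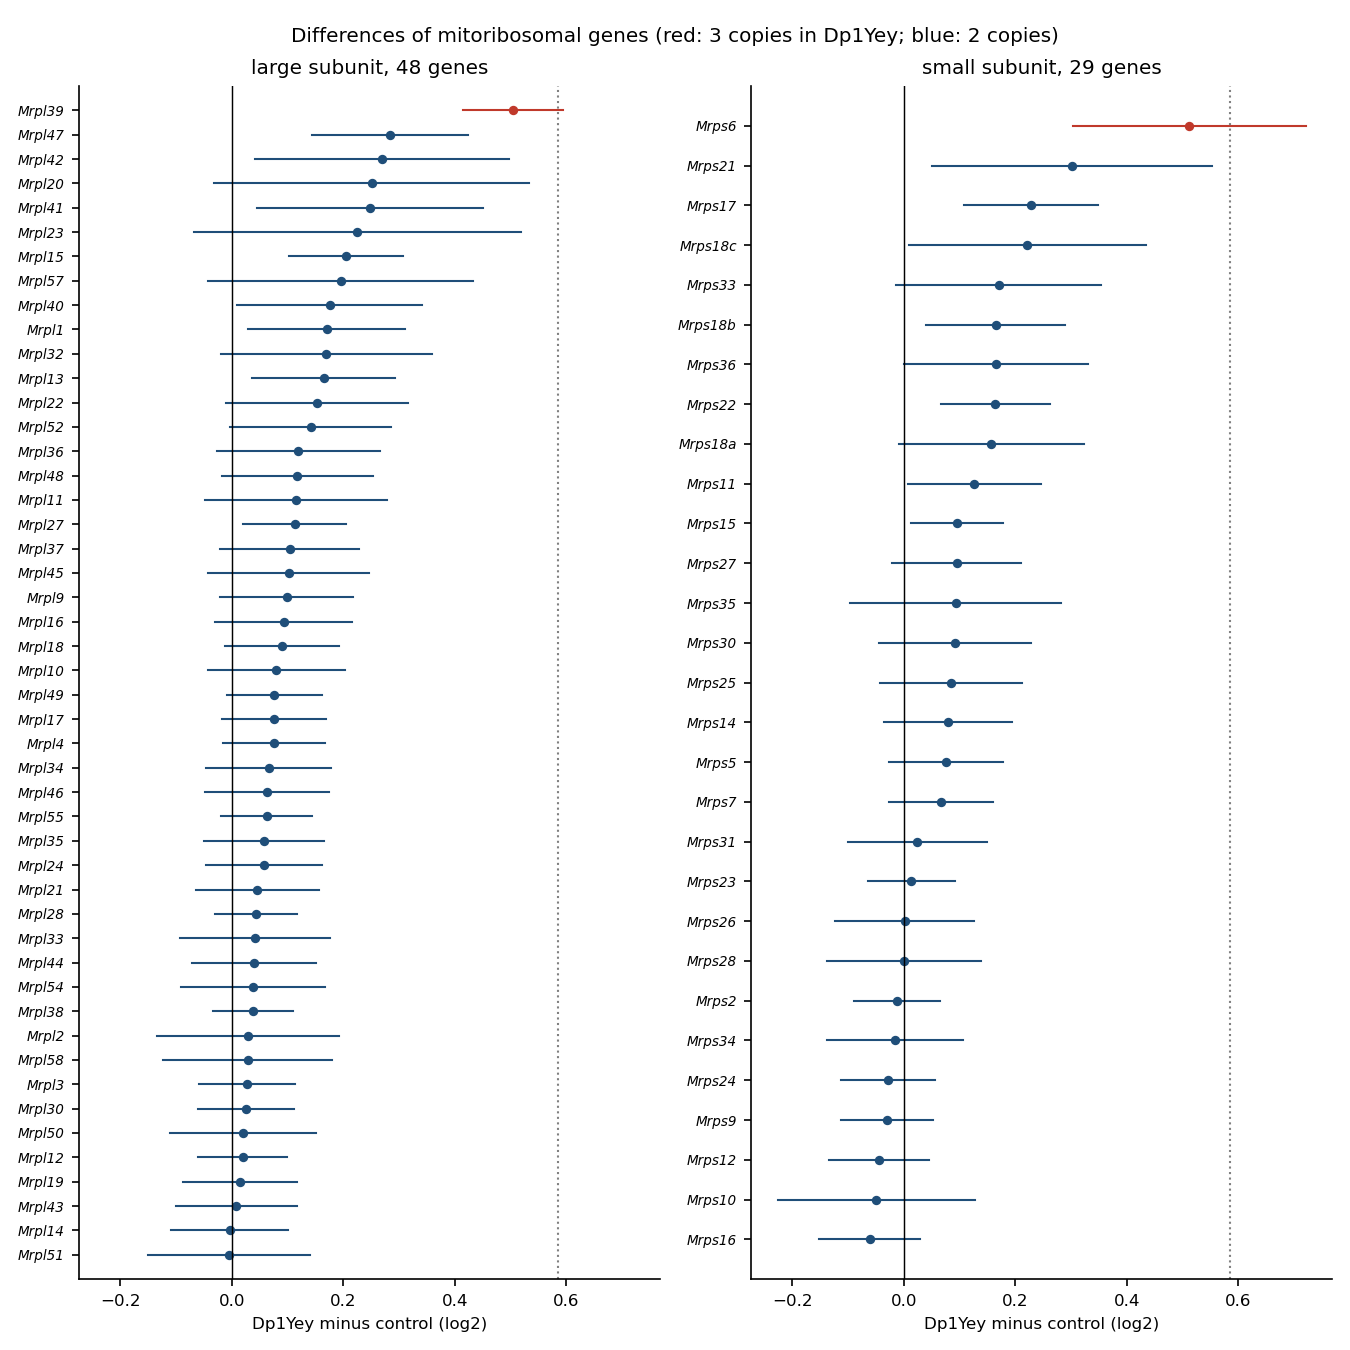
Difference between Dp1Yey and control (log2, horizontal axis) of the 48 large (left) and 29 small subunit genes (right), with 95% CI from limma; red marks genes in 3 copies and blue genes in 2, the solid line is 0 and the dotted line 1.5-fold. Mrpl39 and Mrps6 stand at the top of their subunits, and the 2-copy genes spread around a value slightly above 0.

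Among the large subunit genes, the smallest p of the 2-copy members belonged to Mrpl47, the counterpart of bacterial L29 (Mmu3). It was 7.11, 7.07, 7.00, 6.99 and 6.93 in Dp1Yey and 6.56, 6.61, 6.85, 6.79 and 6.88 in control mice. All Dp1Yey mice were above all controls, the closest pair being Dp1Yey replicate 5 and control replicate 5. The difference was 0.28 (SE 0.064, limma adjusted p = 0.0637), and it passed without control replicate 5 (adjusted p = 0.0428) but under none of the other limma settings tried. A second, dimmer Mrpl47 probe set gave -0.029, so the probe sets disagree.

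Mrpl15, the counterpart of bacterial L15 (Mmu1), was 9.22, 9.09, 9.14, 9.12 and 9.09 in Dp1Yey and 8.83, 8.82, 9.01, 8.99 and 8.98 in control mice. The groups did not overlap, and control replicates 1 and 2 were lowest (difference 0.20, SE 0.047, limma adjusted p = 0.0651). Mrpl42, an added protein, differed by 0.27 (SE 0.10, adjusted p = 0.2) and Mrpl41, likewise added, by 0.25 (SE 0.093, adjusted p = 0.189). Mrpl1 (0.17), Mrpl13 (0.16) and Mrpl27 (0.11), counterparts of bacterial L1, L13 and L27, of which L1 forms a mobile stalk and L27 reaches towards the catalytic centre, did not pass either. The probe sets used for Mrpl27 and Mrpl41 have array numbers that neighbour those of genes on other chromosomes, and the other probe sets of these genes gave 0.19 and 0.081. At the other end were Mrpl51 (-0.0045), Mrpl14 (-0.0039) and Mrpl43 (0.0082). The Mrpl51 probe set that was not used gave 0.13. Mrpl40, which lies on Mmu16 outside the interval (18872018 to 18876637), differed by 0.18 (SE 0.076, adjusted p = 0.233).

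In the small subunit, Mrps17, the counterpart of bacterial S17 (Mmu5), was 8.01, 8.06, 7.84, 7.94 and 7.83 in Dp1Yey and 7.67, 7.59, 7.83, 7.72 and 7.73 in control mice. Only control replicate 3 reached the lowest Dp1Yey mouse (difference 0.23, SE 0.055, limma adjusted p = 0.0782). Mrps22, a protein without a bacterial counterpart whose promoter window is printed with the GABPA-type motif, was 8.60, 8.51, 8.66, 8.66 and 8.50 against 8.41, 8.34, 8.52, 8.41 and 8.43, with an overlap through control replicate 3 (difference 0.16, SE 0.045, adjusted p = 0.101). The same motif was in the windows of Mrps21, which had a higher difference (0.30), and of Mrps16 (-0.061) and Mrps12 (-0.045), which had lower ones.

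Mrps21 had the highest difference of the 2-copy members (0.30, SE 0.12, adjusted p = 0.194), with 10.52, 10.16, 10.15, 10.23 and 10.09 in Dp1Yey and 9.98, 9.47, 10.09, 10.02 and 10.07 in control mice. Control replicate 2 lay far below the other controls, and without it the difference was 0.19. Mrps18b and Mrps18c, paralogues related to bacterial S18, the partner of S6, differed by 0.17 and 0.22 (adjusted p = 0.165 and 0.24), and Mrps15 and Mrps11 by 0.096 and 0.13 (0.203 and 0.233). The lowest were Mrps16 (-0.061), Mrps10 (-0.049) and Mrps12 (-0.045), the last the counterpart of a protein of the bacterial decoding centre, with adjusted p from 0.413 to 0.75.

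By origin, the median difference of 2-copy large subunit genes was 0.078 over 30 with a bacterial counterpart and 0.076 over 17 without, and that of small subunit genes was 0.076 over 17 and 0.088 over 10, with Mrps36, now assigned to the alpha-ketoglutarate dehydrogenase complex, left out. Structures place the products of Mrps18a and Mrps30 in the large subunit; counted there, the medians were 0.080 and 0.078. The 25 2-copy members with CCGGAAG in their window had a median of 0.090 and the 41 without it 0.080. None of these splits was tested.

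The difference of the 2-copy members moved with the arrays. The mean over the 47 large subunit genes was 8.76, 8.75, 8.74, 8.74 and 8.70 in Dp1Yey replicates 1 to 5 and 8.65, 8.50, 8.70, 8.64 and 8.72 in control replicates 1 to 5. The mean over the 28 small subunit genes was 8.45, 8.41, 8.42, 8.43 and 8.40 in Dp1Yey and 8.34, 8.24, 8.40, 8.34 and 8.40 in control mice. Control replicates 3 and 5 were close to or above Dp1Yey replicate 5, and control replicate 2 was far below all others. Control replicate 2 was the lowest array for 46 of the 75 genes, it also had the narrowest interquartile range (3.40), and its cytosolic ribosomal mean was 10.48 against 10.66 to 10.73 in the other 9 mice.

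**Figure D4:**
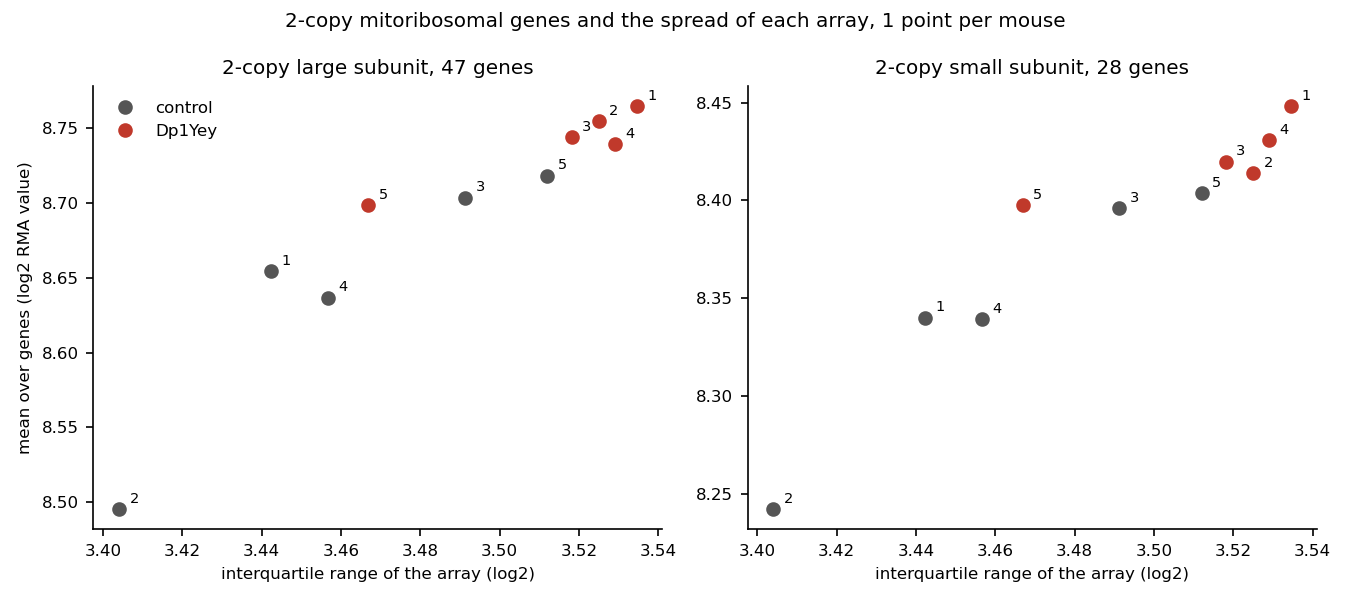
Mean log2 expression of the 47 large (left) and 28 small subunit genes in 2 copies (vertical axes) against the interquartile range of the array (horizontal axis), in 5 control (grey) and 5 Dp1Yey (red) mice, numbered by replicate. The means are higher on arrays of wider range in both groups, and control replicate 2 lies lowest on both axes.

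When the interquartile range was added to the fit, 42 of the 75 2-copy members had a difference above 0, and the medians were 0.0070 for the large and 0.011 for the small subunit. Without control replicates 1 and 2, 63 were above 0, with medians of 0.048 and 0.043. Without control replicate 2 alone, 62 were above 0 and the medians were 0.053 and 0.054. Genotype and array spread cannot be told apart as the source of the remaining difference. Set against the mean of the 2-copy members of its subunit in the same mouse, Mrpl39 lay at 1.44, 1.32, 1.37, 1.41 and 1.31 in Dp1Yey and 0.99, 1.09, 0.95, 0.90 and 0.88 in control mice. Mrps6 lay at 1.33, 1.15, 1.21, 1.43 and 0.98 against 0.82, 0.58, 0.82, 0.88 and 0.83. The group means differed by 0.41 for Mrpl39 and 0.43 for Mrps6, and neither overlapped.

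**Figure D5:**
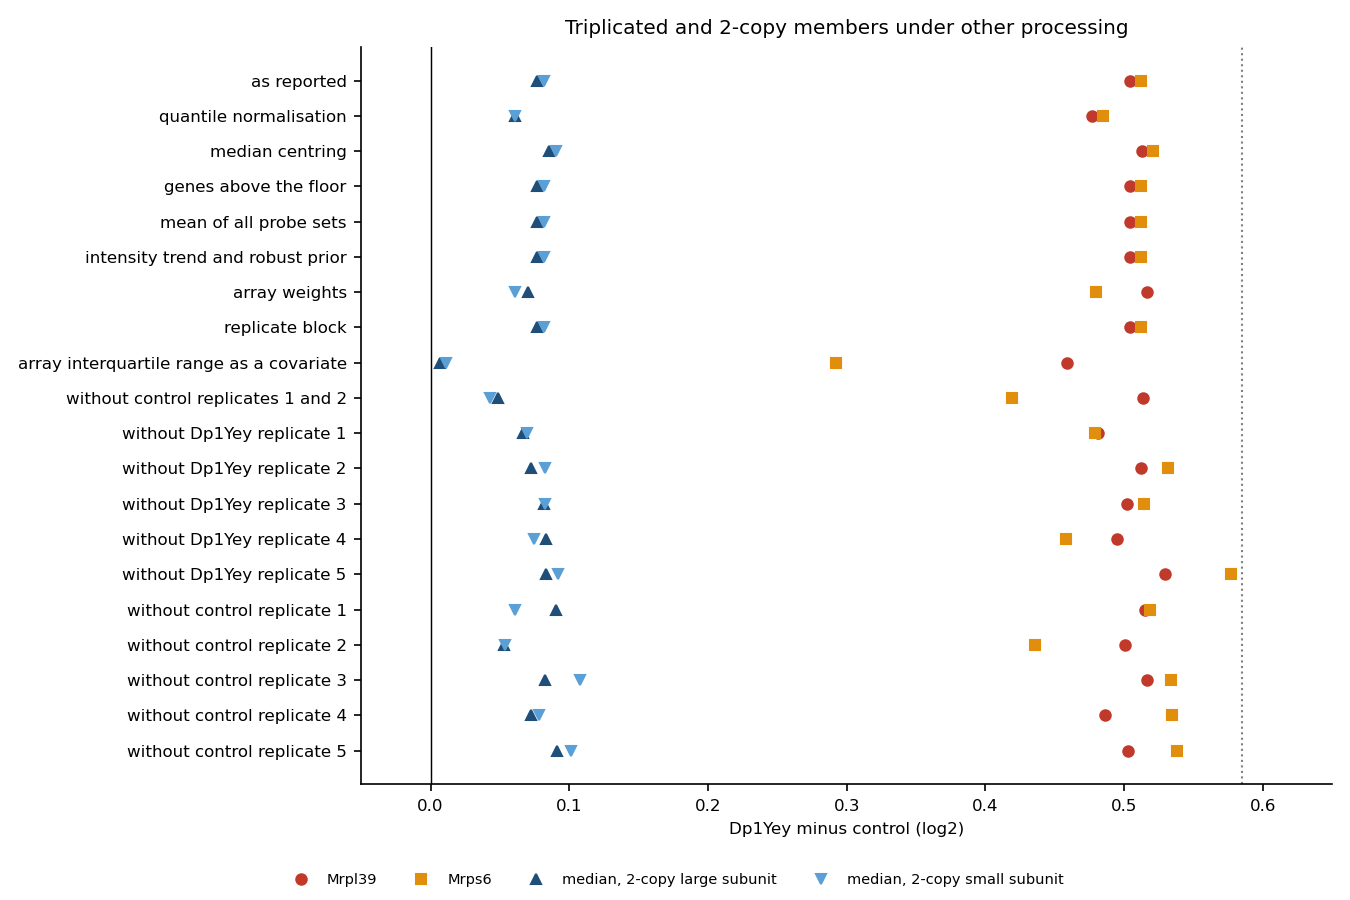
Difference between Dp1Yey and control (log2, horizontal axis) of Mrpl39 and Mrps6 and the median difference of 2-copy large and small subunit genes, under each way of processing (vertical axis); the solid line is 0 and the dotted line 1.5-fold. Mrpl39 stays between 0.46 and 0.53, while Mrps6 falls to 0.29 and the medians to 0.0070 and 0.011 once the interquartile range of the arrays enters the fit.

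After the group means were removed, the members that varied most like Mrpl39 over the 10 arrays were Mrpl14 (r = 0.785), Mrpl24 (0.712) and Mrpl21 (0.701), and those most like Mrps6 were Mrpl45 (0.902), Mrpl37 (0.863) and Mrpl24 (0.856). The median r over the other 76 members was 0.235 for Mrpl39 and 0.529 for Mrps6. All genes share the arrays and their spread, so these values are a description.

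Other genes of mitochondrial translation did not pass the test outside the interval. The lists held 4 mitoribosomal proteins with other names, 29 assembly factors, 21 translation factors and 16 mitochondrial aminoacyl-tRNA synthetases. Of these, 0 were called in either direction, where 0.687% of all genes were called higher and 0.11% lower. The counts at an unadjusted p under 0.05 were 1, 7, 3 and 0 higher and 0, 3, 0 and 4 lower. At that threshold 8.75% of all genes were higher and 10.8% lower. The medians were 0.11, 0.016, 0.039 and -0.0038. Ptcd3, a small subunit protein, differed by 0.22 and Tufm, the elongation factor that brings in aminoacyl-tRNA, by 0.23 (limma adjusted p = 0.192 and 0.104). Malsu1, which joins the large subunit during assembly, differed by 0.16 with no overlap between groups (adjusted p = 0.137), and Noa1, an assembly GTPase, by 0.13 (0.127). Rcc1l, another assembly factor, was at -0.20 (0.143).

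The synthetases had a median near that of all genes, with 7 of 16 above 0, against 42.1% of all genes. Their differences ranged from -0.14 to 0.056. At an unadjusted p under 0.05, 4 of the 16 were lower, against 10.8% of all genes, and 0 were higher, against 8.75%. Of those named by smallest p, Fars2, which charges phenylalanine tRNA, was 7.53, 7.48, 7.53, 7.57 and 7.51 in Dp1Yey and 7.76, 7.57, 7.60, 7.62 and 7.62 in control mice, lower in every Dp1Yey mouse than in every control (difference -0.11, SE 0.039, limma adjusted p = 0.165). Vars2 (-0.11), also without overlap, and Ears2 (-0.098) did not pass (adjusted p = 0.19 and 0.176). Groups without overlap and with Dp1Yey lower were found in 2 of the 16, against 2.46% of all genes. In the list of mitochondrial transcription and its nuclear regulators, 1 of 13 rose, the triplicated Gabpa, and 0 fell. Its partner Gabpb2 (-0.096), the mitochondrial RNA polymerase Polrmt (-0.089) and Nrf1 (0.070) did not pass (adjusted p = 0.182, 0.242 and 0.293). The mitochondrial ribosomal RNAs have no value here.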

How the data were processed

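Hippocampal RNA of 5 Dp1Yey and 5 control mice, 1 array each, was grouped by the sample titles. The deposited values are on a log2 scale and were produced by the authors with RMA (robust multi-array average), which corrects background, quantile-normalises probes and summarises them per probe set. RMA, limma and mm10 are named in the processing notes of the submitters. Quantile normalisation forces arrays towards one distribution, so a shift of all genes would not be seen. Arrays give no read depth, and their number limits the precision.

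Of 35556 probe sets, 21789 had 1 gene symbol, 1621 several, and 12146 were unlisted in the annotation. Each gene took its probe set of highest mean, giving 19938 genes, of which 19855 were located through RefSeq (GRCm38.p6). Promoter sequences are from RefSeq of that build. Of the members, 8 had more than 1 probe set, and for 4 the probe set used had numbered neighbours only on other chromosomes. Background was a log2 value of 5.45, the percentile 90 of 1015 olfactory receptor genes; all 77 members were above it.

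The groups were compared in R 4.3.3 with limma 3.58.1 (lmFit and eBayes, group only, two-sided, Benjamini-Hochberg over all genes, threshold 0.05). This replaced the study's rank statistic (FCROS), a rewritten version of which, over 25 pairs of arrays, was an alternative. Per-mouse differences between genes used two-sided exact permutation over 252 assignments. Named members were the triplicated genes, all that passed and members whose probe sets disagreed. Per subunit, the 8 of smallest p and the 3 highest and lowest differences were named. Per pathway list, up to 3 genes of smallest p or all called were named. Mrpl40, Mrpl45, Mrpl37, Mrpl24, Mrpl21, Mrps18a, Mrps30 and Mrps36 are named beside these for their position, likeness or role. So are Slc5a3, Kcne2, Clic6, Smim11, Kcne1, Gm10791, Cyyr1, Adamts1 and Nrf1. The members, lists and alternatives were chosen with earlier results of these data known. The code was tested on simulated data. The sample titles give no pairs of mice, and replicate numbers were not taken as pairs.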

Additional observations from a re-analysis of the deposited data

Results flagged for a closer look

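In 100 groups of 5 values examined for an array far from the rest of its group, 6 stood apart, where chance flags about 1 group in 20. Control replicate 2 accounted for 4 of them: Mrps6 at 8.83 (other controls 9.16 to 9.23), Mrps21 at 9.47 (9.98 to 10.09), Malsu1 at 8.72 (8.95 to 8.99) and Chchd1, a small subunit protein, at 7.60 (7.95 or more). Fars2 was high in control replicate 1, at 7.76 (other controls 7.57 to 7.62). Gfm2, a factor of ribosome recycling, was low in Dp1Yey replicate 5, at 7.41 (other Dp1Yey mice 7.60 to 7.67). The cause was not tested.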

How the results depend on the processing

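Mrpl39 kept its rise and its call in all 20 alternatives, and the rises fitted with limma ranged from 0.46 to 0.53. Against 1.5-fold, its adjusted p fell under the threshold with quantile normalisation (0.0171), with the array interquartile range as a covariate (0.0355) and in 1 of 10 fits without one array (range 0.0412 to 0.242). Mrps6 was not called in 8 of 20 alternatives: with that covariate (0.29, and under 1.5-fold at an adjusted p = 0.00569), without control replicates 1 and 2 (0.42), and in 6 of 10 fits without one array (0.44 to 0.58), which also have fewer samples. With the replicate number as a block, Mrpl39 and Mrps6 kept their differences of 0.50 and 0.51 (adjusted p = 0.00418 and 0.0444). Same-numbered mice deviated together with correlations of 0.055, -0.0033, 0.035, 0.19 and -0.32, and 1 of 5 arrays in each group correlated best with its own number, so numbers were not taken as pairs; over all genes the block left 90 higher and 4 lower calls, against 137 and 22. Of the 2-copy members, 0 were higher under all limma settings but the fit without control replicate 5 (range over left-out arrays 0 to 1), and 3 by the rank statistic; 0 were lower under all. The number above 0 changed most with the interquartile range (42) as did the medians (0.0070 and 0.011); without one array they were 61 to 68, 0.053 to 0.091 and 0.054 to 0.11. The choice of probe set by locus, added after seeing the data, left 66 above 0. The level of Mrps6 above Slc5a3 differed by 0.28 to 0.36 without one array, all past the threshold of the exact permutation test. Mrpl51 turned with median centring (0.0042), the mean of all probe sets (0.062), array weights (0.0079) and some left-out arrays (-0.061 to 0.026), and Mrpl14 with centring (0.0047), weights (0.018), without control replicates 1 and 2 (0.0079) and left-out arrays (-0.027 to 0.035). Mrpl43 turned with quantile normalisation (-0.015) and left-out arrays (-0.018 to 0.038), and Mrps10 with weights (0.0098), the interquartile range (0.11), without control replicates 1 and 2 (0.066) and left-out arrays (-0.094 to 0.025). With the interquartile range, Mrps16 (0.0073), Chchd1 (-0.0036) and Slc5a3 (-0.087) turned too, the last 2 from 0.15 and 0.19, and D16Ertd472e was not called (0.42, adjusted p = 0.0674). The cause was not tested. Dim genes and 5 mice per group limit the sensitivity, and the table of deposited values does not allow background correction to be redone.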
